A study of Mus musculus with 5 samples.

Results

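The nuclei described here are those that the authors' cell annotation calls PT(S2), the second segment of the proximal tubule, in a library of single nuclei from a mouse kidney after unilateral ureteral obstruction (UUO). They were chosen by that label alone, and they numbered 1401 of the 6147 nuclei of the UUO library, or 22.8% (exact Clopper-Pearson 95% interval 21.8 to 23.9%). Among the 2352 UUO nuclei with any of the 5 proximal tubule labels they made up 59.6% (57.6 to 61.6%). Of the 17542 barcodes in the 5 libraries of the study, all others belong either to other UUO labels or to healthy kidney.

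In UUO the ureter of one kidney is tied, the tubules dilate and the kidney scars. The UUO nuclei were taken 14 days after obstruction and profiled on the 10x Chromium droplet system. They are set here against 3 groups of nuclei from the same library, namely 280 labelled PT(S1), 473 labelled PT(S3) and all 4746 others, and against 452 nuclei labelled PT(S1-S2) in a 10x library of 2084 nuclei from healthy kidney, whose label joins the first and second segments. The strain named in the tissue protocol is C57BL/6, no transgene or further agent is named for either group, and sex, age and the number of mice pooled in a library are not stated in what was used here. Each condition is 1 library, so no difference below has a test, and every interval covers counting error only.

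The proximal tubule takes back most of the glucose, amino acids, phosphate, bicarbonate and filtered protein that pass the glomerulus. Its first segment is richest in apical sodium-coupled carriers, its second in basolateral carriers of organic anions that secrete drugs and metabolites into the urine, and the straight segment that follows in enzymes and carriers regulated by sex hormones. The cells run on fatty acid oxidation, and after injury they are known to lose carriers and enzymes and to express adhesion molecules and cytokines.

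The PT(S2) nuclei held 2059776 unique molecular identifiers (UMIs, counted RNA molecules), 27.8% of the 7411036 UMIs of the UUO library. The median nucleus labelled PT(S2) had 1372 UMIs, with quartiles of 1081 and 1742, against 1278 in PT(S1), 1544 in PT(S3), 952 in all other UUO nuclei and 1270 in healthy PT(S1-S2). Drawn down to 500 UMIs, which left out 20 nuclei, the median PT(S2) nucleus showed 371 genes, against 372 in PT(S1), 381 in PT(S3) and 383 in all other UUO nuclei. The UUO and healthy 10x libraries shared 23 barcode sequences, 4 of them labelled PT(S2). Levels below are CPM, the counts of a gene summed over the nuclei of a label and scaled by the UMIs of that sum (counts per 1000000). They are not corrected for gene length, so they compare labels and not genes.

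The label was first set against the 3 marker genes given for it. Slc13a1, the apical sodium-sulfate carrier, stood at 986 CPM in PT(S2), 1462 in PT(S1), 1276 in PT(S3) and 1180 in healthy PT(S1-S2). Il34, a cytokine that binds the macrophage colony-stimulating factor receptor, stood at 2594 CPM in PT(S2), 1846 in PT(S1), 2648 in PT(S3) and 81.0 in healthy PT(S1-S2). Kcnip4, a calcium-binding partner of potassium channels, stood at 3976 CPM in PT(S2), 3400 in PT(S1), 3209 in PT(S3) and 40.5 in healthy PT(S1-S2). All 3 genes were at least 2-fold higher in PT(S2) than in all other UUO nuclei summed, but none of them was 2-fold apart from PT(S1) or PT(S3).

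Carriers known for the second segment gave no separation either. Slc22a6 and Slc22a8, the basolateral organic anion carriers OAT1 and OAT3, had 0 counts and 1 count in PT(S2), against 115 and 212 CPM in healthy PT(S1-S2). Slc13a3, the basolateral dicarboxylate carrier, stood at 4.86 CPM in PT(S2), 12.8 in PT(S1), 7.76 in PT(S3) and 962 in healthy PT(S1-S2). Proximal tubule genes as a set were present. Of 18 measured core genes 9 were at least 2-fold higher in PT(S2) than in all other UUO nuclei and 0 lower, where 2.95% of all genes were higher. Hnf4a, a transcription factor of the proximal tubule, was at 164 CPM in PT(S2) and 61.5 in all other UUO nuclei, and Lrp2, the endocytic receptor megalin, at 392 and 158 CPM. Slc34a1, Slc5a12 and Aqp1 of the same list went the other way, at log2 ratios of -0.69, -0.59 and -0.21. The data therefore show a proximal tubule population that the given markers do not set apart from PT(S1) and PT(S3). It is named here by its label.

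**Figure D1:**
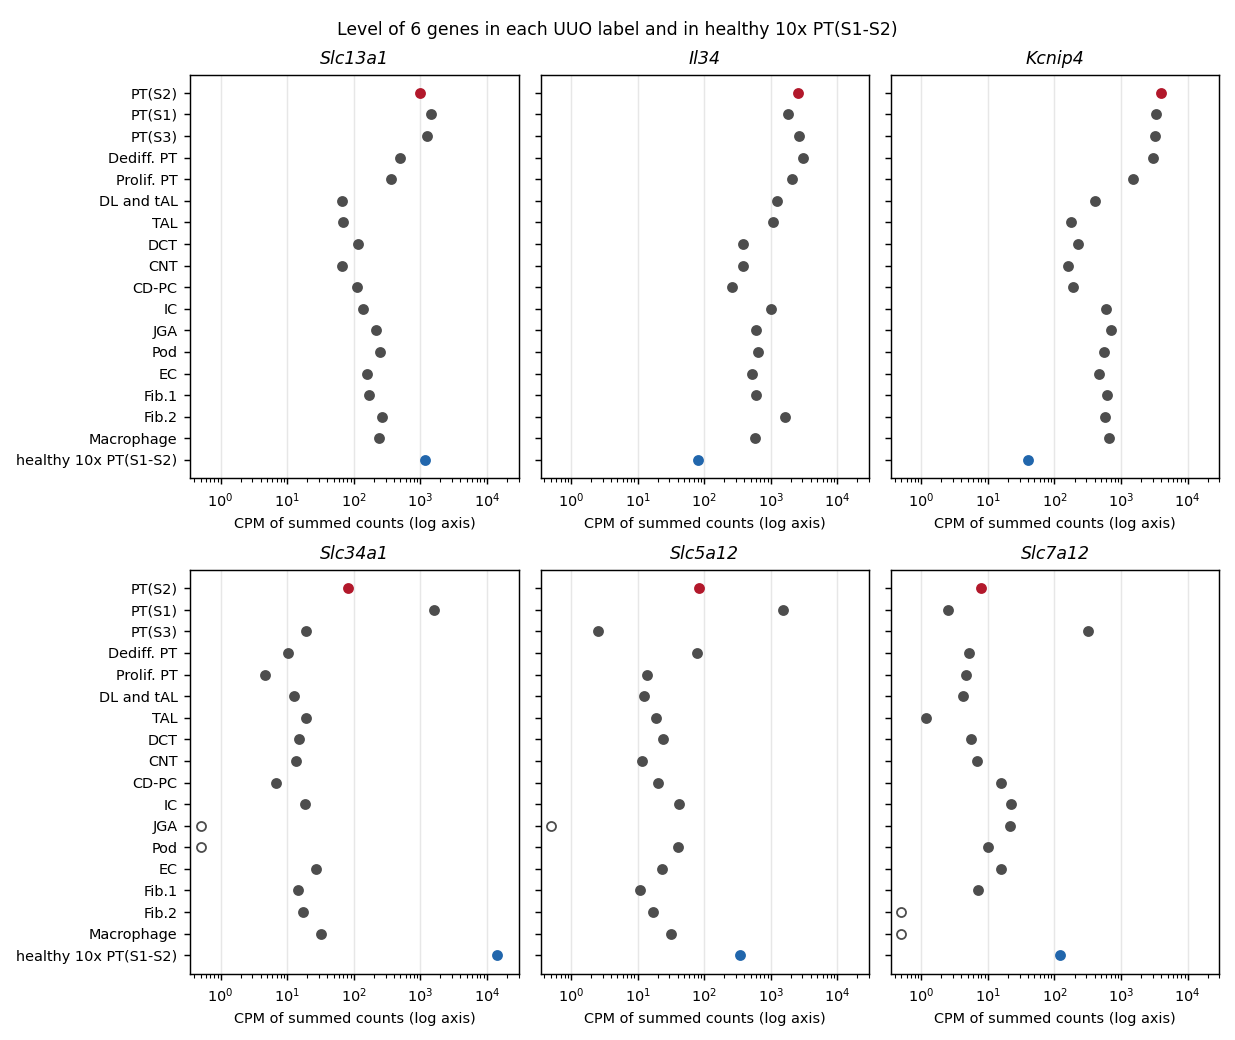
CPM of 6 genes (log axis) in each of the 17 UUO labels, PT(S2) at the top in red, and in healthy 10x PT(S1-S2) at the bottom in blue; each point is 1 summed label and open points are sums of 0. Slc13a1, Il34 and Kcnip4 were alike in the first 3 labels, whereas Slc34a1 and Slc5a12 were highest of the UUO labels in PT(S1) and Slc7a12 in PT(S3).

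Seen per nucleus, at least 1 UMI of Slc13a1 was found in 51.2% of PT(S2) nuclei (48.6 to 53.9%), of Il34 in 83.6% (81.5 to 85.5%) and of Kcnip4 in 81.1% (78.9 to 83.1%). At 500 UMIs a nucleus, Slc13a1 was found in 29.8%, Il34 in 62.6% and Kcnip4 in 65.0%. Endothelial nuclei (EC), which should lack these genes and had a median of 530.5 UMIs, gave 5.71%, 13.7% and 10.9% at the same depth and serve as the background. Il34 was not confined to the proximal tubule. At that depth it was found in 45.6% of nuclei labelled Fib.2, 34.8% of the ascending limb label and 33.3% of intercalated nuclei. All 3 markers were seen together in 525 PT(S2) nuclei, 2 in 606, 1 in 238 and none in 32. At 500 UMIs these numbers were 166, 583, 509 and 123.

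Few genes stood out in PT(S2) over every other label. Of 12861 genes with at least 20 counts over the UUO library, 54 (0.42%) were highest in PT(S2), against 559 in PT(S1) and 250 in PT(S3). Labels with small sums led for more genes, with 2057 in macrophages at 62841 UMIs and 1893 in the juxtaglomerular label at 46974 UMIs, so depth moved with this count and its part was not tested. Under trimmed mean (TMM) scaling 325 genes were highest in PT(S2). Slc17a4, a sodium-phosphate carrier family member that also moves organic anions, was at 20.9 CPM in PT(S2) and 10.2 in PT(S1), the next label. H2-DMb2, a chain of the class II peptide-loading complex, was at 11.2 CPM in PT(S2) and 5.56 in the distal convoluted tubule. These were the only genes at least 2-fold above the next label, on 43 and 23 counts. Better-counted genes led by less: Sorcs1, a sorting receptor, stood at 1119 CPM in PT(S2) and 927 in PT(S1), and Nt5e, the ecto-enzyme that makes adenosine, at 524 CPM in PT(S2) and 472 in PT(S3).

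Against PT(S1), the nuclei labelled PT(S2) had less of the apical carriers of the early segment. A gene was counted as apart where the 2 sums held at least 20 counts and differed at least 2-fold. Of 9180 genes measured, 654 (7.12%) were higher in PT(S2) and 323 (3.52%) lower. The sources used here do not say how the labels were assigned, and if they were drawn from these counts the genes that separate them are partly what defined them, so the following values describe the labels.

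Slc34a1, the main sodium-phosphate carrier of the brush border, stood at 82.1 CPM in PT(S2) and 1620 in PT(S1), a log2 ratio of -4.30 (95% interval -4.56 to -4.06). Slc5a12, a sodium-lactate carrier of the brush border, stood at 85.0 CPM in PT(S2) and 1508 in PT(S1), a log2 ratio of -4.15 (-4.40 to -3.90). Slc6a19, the neutral amino acid carrier B0AT1, was at 4.86 and 64.0 CPM. These 3 apical carriers were the lowest of all genes in PT(S2) by the interval bound nearest to 0. A UMI of Slc34a1 was found in 7.07% of PT(S2) nuclei (5.78 to 8.54%) and in 56.8% of PT(S1) nuclei (50.8 to 62.7%). At 500 UMIs the shares were 3.40% in PT(S2) (2.51 to 4.50%) and 42.7% in PT(S1). Among nuclei that should lack the gene they were 0.644% in the ascending limb label (0.210 to 1.5%), 0.581% in the distal convoluted tubule (0.120 to 1.69%), 0.207% in the connecting tubule (0.00523 to 1.15%) and 1.14% in EC (0.139 to 4.07%). The PT(S2) interval lay above those of these 3 tubule labels and overlapped that of EC, which rests on 2 of 175 nuclei. It also overlapped those of intercalated nuclei, at 0.901% (0.109 to 3.22%), and of the descending and thin limb label, at 0.532% (0.0135 to 2.93%).

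Further genes among the lowest against PT(S1) included carriers, enzymes and a secreted ligand. Slc9a3, the sodium-proton exchanger NHE3 that drives bicarbonate uptake, was at 48.6 CPM in PT(S2) and 202 in PT(S1). Ugt2b37, a glucuronosyltransferase, was at 174 and 640 CPM, and Acsm2, a medium-chain acyl-CoA ligase, at 117 and 399 CPM. Pde1a, a phosphodiesterase activated by calcium and calmodulin, was at 89.3 and 502 CPM. The same group held Svopl at 122 and 430 CPM, Rdh16, a retinol dehydrogenase, at 10.7 and 53.8 CPM, Ccdc85a at 17.0 and 108 CPM, and Angpt1, the ligand of the endothelial receptor Tek, at 12.6 and 66.6 CPM.

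By list, 9 of 16 measured proximal tubule core genes were at least 2-fold lower in PT(S2) than in PT(S1) and 0 higher, with a median log2 ratio of -1.12 against 0.02 over all genes. They were Slc34a1, Slc5a12, Acsm2, Fbp1, Gatm, Slc16a9, Dab2, Lrp2 and Ass1. Their range was wide, since Lrp2 was at 392 CPM in PT(S2) and 873 in PT(S1), whereas Cubn, its partner in protein uptake, was at 66.5 and 64.0 CPM. Of 10 genes of glucose transport and gluconeogenesis 5 were lower, Sord, Fbp1, Pck1 and Pcx among them, and Fbp1, an enzyme of glucose synthesis, was at 7.28 and 23.0 CPM. Of 16 genes of peroxisomes and amino acid breakdown 5 were lower, and of 10 genes of acyl-CoA and glycine conjugation 4, where 3.52% of all genes were lower. The median nucleus spent 0.347% of its UMIs on proximal tubule core genes in PT(S2) and 0.823% in PT(S1).

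Genes higher in PT(S2) than in PT(S1) included several known from injured tubule. Cd44, the hyaluronan receptor, was at 105 CPM in PT(S2) and 20.5 in PT(S1), a log2 ratio of 2.36 (1.36 to 3.59). Havcr1, the injury marker KIM-1, was at 227 CPM in PT(S2) and 97.3 in PT(S1), a log2 ratio of 1.22 (0.74 to 1.74). Cdh13, a cadherin without a cytoplasmic tail, was at 59.7 and 7.68 CPM, Smox, spermine oxidase, at 78.2 and 15.4 CPM, and Wnt5b, a secreted Wnt ligand, at 41.3 and 5.12 CPM. Micall2 and Fam129b had 62 and 57 counts in PT(S2) and 0 in PT(S1). Against a floor of 3 counts in the PT(S1) sum, their log2 ratios were at least 1.97 and 1.85.

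Of 28 tubule injury genes 6 were at least 2-fold higher in PT(S2) than in PT(S1), Cd44, Plaur, Akap12, Krt20, Plin2 and Havcr1, and 0 lower, with a median log2 ratio of 0.37. Over all genes 7.12% were higher and 3.52% lower. Of 18 measured cytokines and growth factors 4 were higher, Ccl2, Ctgf, Tgfb1 and Cxcl2, and Ccl2, a monocyte attractant, rested on 34 counts in PT(S2) at 16.5 CPM and 2.56 CPM in PT(S1). Among 19 genes of the NF-kappaB and interferon response 3 were higher, Tnfaip3 and Nfkb1 among them, and Nfkb1, the p50 subunit precursor, was at 294 and 133 CPM. Vcam1, an adhesion molecule of injured tubule, was at 774 CPM in PT(S2) and 479 in PT(S1), a log2 ratio of 0.69 (0.47 to 0.92) that stayed under 2-fold. Nrg1, an ErbB receptor ligand, was at 469 and 202 CPM, and Kcnh8, a voltage-gated potassium channel, at 508 and 200 CPM.

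**Figure D2:**
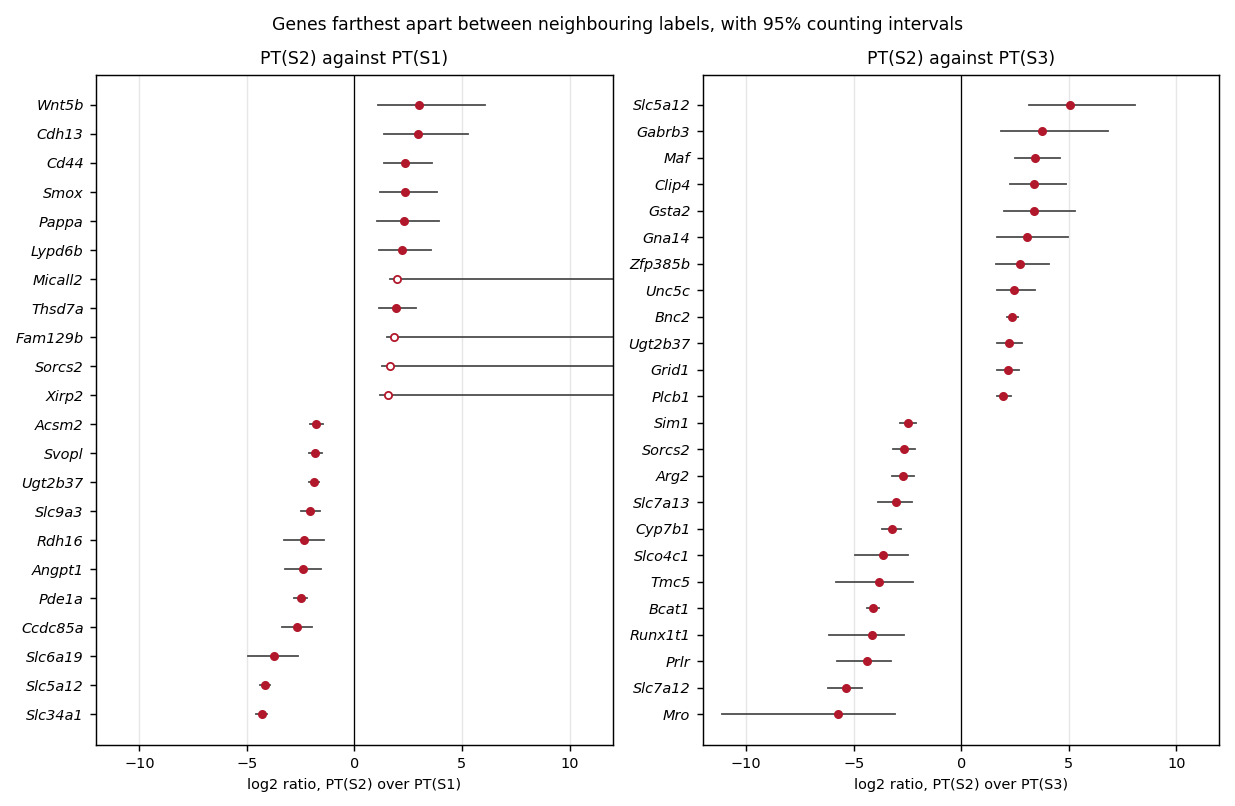
log2 ratio of PT(S2) over PT(S1) (left) and over PT(S3) (right) for the genes farthest apart in each direction; points are ratios of summed CPM, lines 95% intervals for counting error, open points bounds against a sum of 0. Slc34a1 and Slc5a12 were lowest against PT(S1) and Slc5a12 was highest against PT(S3).

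Against PT(S3), the nuclei labelled PT(S2) had less of some genes known for the straight segment. In PT(S2), 431 (4.48%) of 9620 genes lay at least 2-fold above PT(S3) and 337 (3.5%) below it. Slc7a12, a cystine and amino acid carrier family member, was at 7.77 CPM in PT(S2) and 318 in PT(S3), a log2 ratio of -5.36 (-6.19 to -4.63). Bcat1, the cytosolic branched-chain aminotransferase, was at 62.1 CPM in PT(S2) and 1062 in PT(S3), a log2 ratio of -4.10 (-4.38 to -3.83). Cyp7b1, an oxysterol hydroxylase, was at 29.1 and 274 CPM and Slc7a13, an aspartate, glutamate and cystine carrier of the straight segment, at 9.71 and 80.1 CPM. Of 6 measured straight segment genes 3 were lower in PT(S2) and 0 higher, with a median log2 ratio of -1.90 against -0.03 over all genes. The other 3 were not 2-fold apart, with Atp11a, a phospholipid flippase, at 267.5 CPM in PT(S2) and 425 in PT(S3), Slc5a1, the glucose carrier SGLT1, at 60.2 and 95.6 CPM, and Slc6a18, an amino acid carrier, at 26.7 and 45.2 CPM.

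Prlr, the prolactin receptor, stood at 3.40 CPM in PT(S2) and 71.1 in PT(S3), and Slco4c1, an organic anion carrier, at 3.88 and 47.8 CPM. Arg2, mitochondrial arginase, was at 23.8 and 155 CPM and Sim1, a bHLH-PAS transcription factor, at 44.7 and 247 CPM. Mro, Runx1t1 and Tmc5 rested on 1, 4 and 4 counts in PT(S2) and 20, 27 and 21 in PT(S3). Sorcs2, a sorting receptor, was at 23.8 CPM in PT(S2) and 149 in PT(S3), while it had 0 counts in PT(S1). Slc5a10, a mannose and fructose carrier, was at 226 and 626 CPM and Slc5a8, a monocarboxylate carrier, at 22.3 and 103 CPM.

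On the higher side, Slc5a12 was at 85.0 CPM in PT(S2) and 2.59 in PT(S3), a log2 ratio of 5.04 (3.16 to 8.10). Maf, a bZIP transcription factor, was at 127 CPM in PT(S2) and 11.6 in PT(S3), a log2 ratio of 3.45. Bnc2, a zinc finger protein, was at 1065 CPM in PT(S2) and 205.5 in PT(S3), a log2 ratio of 2.37 (2.14 to 2.62) on 2194 and 159 counts. Bmp6, a secreted bone morphogenetic protein, was at 1796 and 729 CPM, and Gsta2, a glutathione transferase, at 53.9 and 5.17 CPM. Of 8 measured early segment genes 4 were higher in PT(S2) and 0 lower, Slc5a12, Gatm, Slc7a8 and Slc2a2, with a median log2 ratio of 1.07. Of 28 tubule injury genes only Vim was at least 2-fold higher and 0 were lower, where 4.48% of all genes were higher and 3.5% lower. Havcr1 was at 227 CPM in PT(S2) and 331 in PT(S3).

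Markers counted for podocytes and endothelium also differed between PT(S2) and PT(S3). The podocyte list summed to 1565 CPM in PT(S2) and 654 in PT(S3), most of it Magi2, and 2 of 4 measured members were higher and 0 lower. Magi2 and Clic5, counted here as podocyte markers, were at 1372 and 127 CPM in PT(S2), against 552 and 50.4 CPM in PT(S3). Both were at least 2-fold apart, while Ptpro, a phosphatase of podocytes, was at 0.971 CPM in PT(S2) and 2.59 in PT(S3). Of 6 measured endothelial markers 3 were higher in PT(S2), Emcn, Meis2 and Tek, and Flt1 was lower, at 14.6 CPM in PT(S2) and 31.0 in PT(S3). Emcn was at 12.1 CPM in PT(S2) and 3.88 in PT(S3), against 543 CPM in EC. The part of these markers in the differences between the labels was not tested.

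Between the 2 neighbours PT(S2) took a middle place. Of 908 genes at least 2-fold apart between PT(S1) and PT(S3), with at least 20 counts over those 2 sums, 801 (88.2%) had a PT(S2) level between the 2, 49 lay above both and 58 below both. On a log2 scale after adding 10 CPM, 54.5% of them were nearer to PT(S3). Slc34a1 was at 82.1 CPM in PT(S2), between 1620 in PT(S1) and 19.4 in PT(S3), and Maf at 127 CPM in PT(S2), between 307 in PT(S1) and 11.6 in PT(S3). With a minimum of 100 counts 171 of 178 genes (96.1%) lay between, and with a minimum of 1 count 1910 of 2477 (77.1%). Genes chosen because 2 labels differ place a further label between them in part by the choice, so the share is a description. Across 6908 genes that averaged 20 CPM or more over labels, the rank correlation of PT(S2) was 0.947 with PT(S3), 0.944 with PT(S1), 0.917 with the dedifferentiated label (Dediff. PT) and 0.867 with the proliferating label (Prolif. PT). It was 0.738 with healthy PT(S1-S2), over 6902 genes. The healthy library shows the mark of a gene filter, described below. Genes that it lists without counts were not taken out of this value, so it cannot be set beside those within the UUO library. All these correlations are across genes, which are not replicates.

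**Figure D3:**
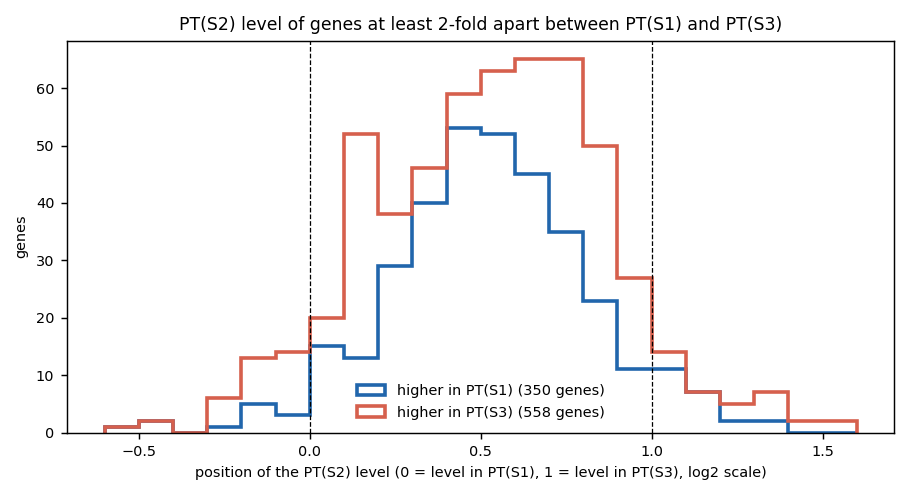
Number of genes by the place of their PT(S2) level on a log2 scale where 0 is the level in PT(S1) and 1 the level in PT(S3), after adding 10 CPM, for 350 genes higher in PT(S1) (blue) and 558 higher in PT(S3) (red). Most genes lay between the dashed lines in both sets, 801 of 908 by CPM.

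The other proximal tubule labels of the obstructed kidney were close to PT(S2) in their summed injury genes. The tubule injury list stood at 10007 CPM in PT(S2), 8043 in PT(S1), 10659 in PT(S3), 12090 in Dediff. PT and 10055 in Prolif. PT. This was not particular to the proximal tubule, with 9485 CPM in the distal convoluted tubule and 11212 in the ascending limb label. Single genes lay farther apart. Vcam1 was at 774 CPM in PT(S2) and 1825 in Dediff. PT, Ccl2 at 16.5 and 802 CPM, and Hnf4a at 164 and 46.3 CPM. Top2a, the topoisomerase of dividing cells, was at 7.77 CPM in PT(S2) and 545 in Prolif. PT.

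Against all other UUO nuclei, 380 of 12861 genes (2.95%) were at least 2-fold higher in PT(S2) and 1806 (14%) lower. Of the genes apart, 17.4% were higher, and 26.2% under TMM and 28.1% under median-of-ratios scaling, which raised these log2 ratios by 0.15 and 0.18. Kcnip4 was at 3976 CPM in PT(S2) and 1107 in all others, a log2 ratio of 1.84 (1.80 to 1.89). Bmp6 was at 1796 and 498 CPM, and Sorcs1 at 1119 and 311 CPM. Dock10, an activator of small GTPases, was at 1020 and 355 CPM and Ankrd6, a Wnt pathway protein, at 683 and 218 CPM. Of 18 proximal tubule core genes 9 were higher and 0 lower, with a median log2 ratio of 0.98 against -0.19 over all genes. Slc34a1 was an exception, at 82.1 CPM in PT(S2) and 133 in all others, which include the PT(S1) nuclei.

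Of 18 organic anion and cation transporters 10 were higher in PT(S2) than in all other UUO nuclei and 1, Slco4c1, lower. Slc17a1, a phosphate and urate carrier, was at 148 CPM in PT(S2) and 47.7 in all others. Of 11 genes of acyl-CoA and glycine conjugation 6 were higher and 0 lower, and of 23 P450 and phase II enzymes 9 were higher and 2 lower. Cyp2j13, a cytochrome P450, was at 240 and 80.4 CPM.

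Genes lower in PT(S2) than in all other UUO nuclei included many markers of the distal nephron and of non-epithelial cells. Mecom, a zinc finger transcription factor of distal nephron and endothelium, was at 156 CPM in PT(S2) and 1702 in all others. Phactr1, an actin regulator, was at 56.3 and 893 CPM, Kcnq1, a potassium channel, at 21.9 and 340 CPM, and Ptpro, a podocyte phosphatase, at 0.971 and 33.8 CPM. Of 8 thick ascending limb markers 7 were lower, of 6 principal cell markers 6, of 9 endothelial markers 8 and of 10 fibroblast markers 8. The distal convoluted tubule markers were closer, with 1 of 6 lower and sums of 962 CPM in PT(S2) and 1004 in all others. Lower genes outside these lists included Slc7a12 and Cyp7b1, counted here as straight segment genes, at log2 ratios of -2.75 and -2.58. Cyp7b1 was not confined to that segment. At 500 UMIs it was found in 24.4% of connecting tubule nuclei, 21.3% of Fib.1 and 16.2% of Fib.2, against 11.35% of PT(S3). All other UUO labels were below PT(S3) in this share. Top2a, Cenpf, Mki67, Cdk1 and Diaph3, which were 5 of 17 cell division genes, were also lower. Slc12a1, the defining carrier of the thick ascending limb, stood at 29.1 CPM in PT(S2) and 1276 in the ascending limb label. Pecam1, which defines endothelium, was at 36.4 CPM in PT(S2) and 1051 in EC, and Adgre1, which defines mouse macrophages, at 1.46 CPM in PT(S2) and 159 in macrophages. The proximal tubule genes were in turn found in those labels, Kcnip4 at 473 CPM in EC and 652 in macrophages.

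The comparison with healthy PT(S1-S2) had the largest share of genes apart, and the tables differ in their genes. The healthy library shows the mark of a gene filter: 6568 genes are listed at 0 over the whole library, and the commonest number of nuclei per listed gene is 11, against 1 in the UUO library. A gene at 0 over the whole healthy library was left out and has no fold. Obstruction cannot be told apart from library, and sex transcripts moved with it. Xist, the RNA of the inactive X, was at 0 CPM in PT(S2) and 1702 in healthy PT(S1-S2), and the Y-linked Uty at 380 and 6.23 CPM.

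In PT(S2), 1434 (14.7%) of 9784 genes measured lay at least 2-fold above healthy PT(S1-S2) and 2029 (20.7%) below it. The higher genes were thus 41.4% of those apart, 55.0% under TMM and 56.2% under median-of-ratios scaling, which raised the log2 ratios by 0.22 and 0.24. Carriers and enzymes of the mature tubule led the lower side. Of 19 proximal tubule core genes 18 were lower and 0 higher, with a median log2 ratio of -3.40 against -0.10 over all genes, and their summed level was 3881 CPM in PT(S2) and 31420 in healthy PT(S1-S2). Slc34a1 was at 82.1 CPM in PT(S2) and 14293 in healthy PT(S1-S2), a log2 ratio of -7.45 (-7.67 to -7.23). Miox, which breaks down inositol in the proximal tubule, was at 3.40 and 1680 CPM, a log2 ratio of -8.95 (-10.27 to -7.90). Lrp2 was at 392 and 2550 CPM and Cubn at 66.5 and 726 CPM.

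Some carriers kept a level near that of healthy kidney. Slc4a4, the basolateral bicarbonate carrier NBCe1, was the core gene that was not 2-fold apart, at 1491 CPM in PT(S2) and 1409 in healthy PT(S1-S2), a log2 ratio of 0.08 (-0.03 to 0.19). Slc13a1 was at 986 and 1180 CPM, a log2 ratio of -0.26 (-0.38 to -0.14). Abcc4, an efflux pump of organic anions, was at 607 and 193 CPM and was the only one of 21 organic anion and cation transporters at least 2-fold higher, while 19 were lower. Among these, Slc22a12, the urate carrier URAT1, had 0 counts in PT(S2) and 153 CPM in healthy PT(S1-S2), and its log2 ratio against a floor of 3 counts in the PT(S2) sum was at most -6.71.

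Glucose, amino acid and fat metabolism were lower in PT(S2) across their lists. Of 16 genes of glucose transport and gluconeogenesis 13 were lower and 0 higher, with a median log2 ratio of -3.59. Pck1, the rate-limiting enzyme of gluconeogenesis, was at 7.77 CPM in PT(S2) and 789 in healthy PT(S1-S2), and G6pc, which releases free glucose, at 3.40 and 251 CPM. Of 19 amino acid transport genes 14 were lower and 0 higher. Of 24 genes of fatty acid oxidation and ketone enzymes 19 were lower and 1, Acadl, higher, with a median of -1.46, and Ppara, the nuclear receptor that drives this pathway, was at 62.6 and 754 CPM. Cyp4a14, a fatty acid hydroxylase and target of that receptor, had 0 counts in PT(S2) and 413 CPM in healthy PT(S1-S2). Of 14 measured glycolysis genes 3 were lower, near the 20.7% lower over all genes, 0 were higher and 11 were not 2-fold apart.

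Of 22 nephron transcription factors 11 were lower in PT(S2) than in healthy PT(S1-S2) and 1 higher. Hnf4a was at 164 and 427 CPM, a log2 ratio of -1.38 (-1.61 to -1.14), and Maf at 127 and 581 CPM. Pax8, a factor of kidney development, was the gene that was higher, at 1134 and 355 CPM. Esrrg, an orphan nuclear receptor, was at 5909 CPM in PT(S2) and 4633 in healthy PT(S1-S2) and was not 2-fold apart.

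On the higher side stood genes of injury and inflammation. Of 21 measured tubule injury genes 15 were higher in PT(S2) and 0 lower, with a median log2 ratio of 2.57. Within the UUO library the sum of this list was alike in and out of the label, at 10007 CPM in PT(S2) and 9652 in all other nuclei. Lcn2, Vcam1, Cd44, Sox9, Krt19, Krt20 and C3 had counts in PT(S2) and were listed at 0 in the healthy library. Havcr1 was at 227 CPM in PT(S2) and 4.67 in healthy PT(S1-S2), a log2 ratio of 5.60 (4.05 to 7.88) on 467 and 3 counts. At 500 UMIs it was found in 10.2% of PT(S2) nuclei (8.66 to 11.9%), against 1.14% of EC (0.139 to 4.07%) and 0.246% of healthy PT(S1-S2) (0.00624 to 1.37%). Other UUO labels outside the proximal tubule reached up to 7.45% in the descending and thin limb label (4.13 to 12.2%), an interval that overlaps that of PT(S2). Clu, a secreted chaperone, was at 342 and 14.01 CPM, and Cdh6, a cadherin of the proximal tubule, at 472 and 81.0 CPM. Spp1, the secreted protein osteopontin, was at 2792 and 128 CPM, but also at 3977 CPM in EC and 6254 in macrophages. At 500 UMIs Spp1 was found in 74.5% of PT(S2) nuclei and 79.4% of EC, so its share in PT(S2) was no higher than the background. Clu was likewise at 764 CPM in EC.

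Of 17 measured genes of the NF-kappaB and interferon response 14 were higher in PT(S2) than in healthy PT(S1-S2) and 0 lower, with a median log2 ratio of 2.37. Within the UUO library the level was not particular to the label. This list summed to 1618 CPM in PT(S2), 1408 in all other nuclei, 1926 in EC and 2451 in macrophages. Relb, a subunit of the noncanonical pathway, was at 135 and 4.67 CPM, Nfkb1 at 294 and 52.9 CPM, and Icam1, an adhesion molecule for leukocytes, at 66.5 and 4.67 CPM. H2-K1, a class I antigen-presenting chain, was at 232 and 7.78 CPM. Of 16 cytokines, chemokines and growth factors 10 were higher and 5 lower. Il34 was at 2594 and 81.0 CPM, a log2 ratio of 5.00 (4.61 to 5.43), Pdgfd, a ligand of the platelet-derived growth factor receptor on mesenchymal cells, at 1489 and 82.5 CPM, and Tgfb2 at 48.6 and 3.11 CPM. Of the genes lower in this list, Egf, made in the distal nephron, was at 3.40 and 476 CPM, and Vegfa at 13.1 and 117 CPM. Of the 11 macrophage markers Cd74 alone could be measured against the healthy nuclei, since Cd44 and Lyz2 are listed at 0 there and the others had too few counts. Cd74 stood at 47.6 CPM in PT(S2) and 7.78 in healthy PT(S1-S2). Within the UUO library Ptprc, which defines leukocytes, was at 7.28 CPM in PT(S2) and 255 in macrophages.

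Ranked on the interval bound nearest to 0, the genes highest in PT(S2) over healthy PT(S1-S2) were Kcnip4, Sorcs1 and Kcnh8. Kcnip4 was at 3976 and 40.5 CPM, a log2 ratio of 6.62 (6.07 to 7.23), Sorcs1 at 1119 and 7.78 CPM, a log2 ratio of 7.17 (5.94 to 8.79), and Kcnh8 at 508 and 1.56 CPM, a log2 ratio of 8.35 (5.87 to 13.66). All 3 are on a list of neuronal-type genes, which did not rise as a list. Of its 17 measured members these 3 were higher and 6 lower, shares near the 14.7% higher of all genes and above the 20.7% lower, with a median log2 ratio of -0.80. Prickle2, a planar polarity protein, was at 632 and 17.1 CPM, Dock10 at 1020 and 20.2 CPM and Cyp2j13 at 240 and 1.56 CPM.

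**Figure D4:**
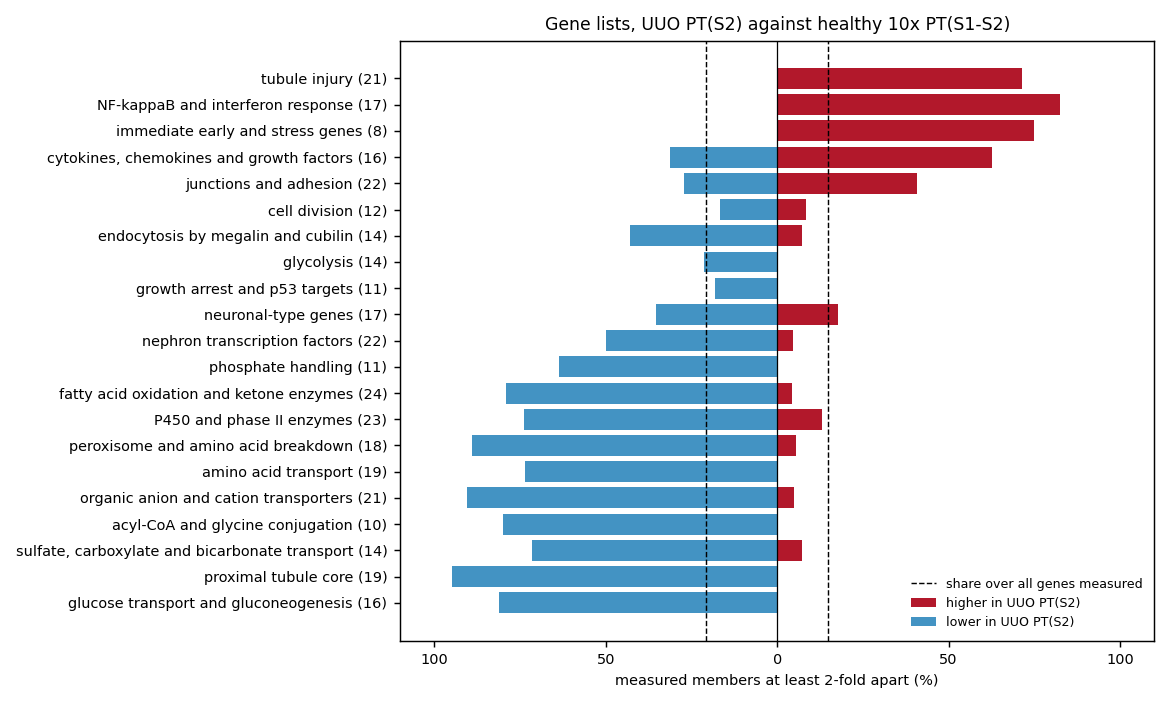
Share of measured members (number in brackets) of each gene list at least 2-fold higher (red, right) or lower (blue, left) in UUO PT(S2) than in healthy 10x PT(S1-S2), as percent; dashed lines mark the shares over all 9784 genes, 14.7% higher and 20.7% lower. Tubule injury, NF-kappaB and interferon, and stress genes lay on the higher side, and transport and metabolic lists on the lower.

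Transcripts of other nephron cells also differed between the libraries. Thick ascending limb markers summed to 168 CPM in PT(S2) and 2877 in healthy PT(S1-S2), and all 6 measured were lower in PT(S2). Slc12a1 was found in 4.07% of PT(S2) nuclei (3.10 to 5.24%) and 52.2% of healthy PT(S1-S2) nuclei (47.5 to 56.9%), and at 500 UMIs in 1.67% of PT(S2) and 30.1% of healthy PT(S1-S2) nuclei. Connecting tubule markers summed to 92.2 and 1695 CPM, principal cell markers to 41.3 and 247.5 CPM and distal convoluted tubule markers to 962 and 1607 CPM. Markers of the descending and thin limb went the other way, at 238 CPM in PT(S2) and 145 in healthy PT(S1-S2), as did podocyte markers, at 1565 and 1200 CPM. The part of these transcripts in the differences between the libraries was not tested.

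The spread of genes among the PT(S2) nuclei was measured as the variance over the mean. At 500 UMIs a nucleus, it was 1.06 at the median of 1970 genes with a mean of at least 0.05 UMIs, with quartiles of 1.02 and 1.11. Sampling alone gives a value near 1, and at low means a gene that varies between nuclei also stays near 1, so the measure says little about most genes and abundant genes stand out in part by their level. Above 1.5 were 17 genes. Among them were the nuclear RNAs Malat1 at 7.38 and Neat1 at 2.77, and Kcnip4 at 3.21, Bmp6 at 1.91, Slc13a1 at 1.72, Il34 at 1.71 and Esrrg at 1.69. All 3 marker genes of the label were among the 17. The 10th and 90th percentiles of the share of UMIs on proximal tubule core genes were 0.118% and 0.709% over PT(S2) nuclei. For tubule injury genes they were 0.562% and 1.55%, with a median of 0.975%, against medians of 1.06% in PT(S3), 1.17% in Dediff. PT, 0.784% in PT(S1), 0.890% in EC and 1.15% in macrophages.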

How the data were processed

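UMI counts per gene and barcode were deposited by the authors as tables, and per the readme deposited with them the values are raw counts made with the zUMIs pipeline. The aligner named in the submitters' processing notes is STAR 2.5.3a, and the build is mm10. For intronic and antisense reads, gene and barcode filters and the way labels were assigned nothing is given in the sources used here, so overlapping and near-identical genes remain uncertain. Labels came from the deposited annotation, 0 columns of values belonged to no sample, all barcodes were kept and doublets were not called. Of the PT(S2) nuclei 10 held more than 3 times the label's median UMIs.

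Counts were summed over the nuclei of a label and divided by all UMIs of the sum. A log2 ratio of 2 sums carries the exact 95% interval conditional on their total, and shares the Clopper-Pearson interval. A sum of 0 was set to 3 counts and gives a bound. With 1 library per condition no test was possible, and nuclei are not replicates. The interval method was tested on simulated counts with sampling error alone, so that test does not bear on spread between nuclei.

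The members, the 35 gene lists and the comparisons were chosen with earlier results of these data known. Genes named were the 12 highest and 12 lowest of a comparison ranked on the end of the interval closest to 0 (no mitochondrial or ribosomal protein genes and no unnamed models), the markers, the 4 members of each list with most CPM and those at least 4-fold apart, genes at least 2-fold above every other label, and the 15 most abundant. A few genes that the rule names are not reported here, not all others are printed, and some genes outside the rule were named after their values were seen, Nt5e and genes that define other cell types among them. Alternatives were other scalings, count and barcode minimums and barcodes without the high ones. TMM factors came from edgeR 4.0.16 in R 4.3.3, and all else from Python 3.11.15 (numpy 2.4.6, pandas 2.3.3, scipy 1.17.1, matplotlib 3.10.9).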

Additional observations from a re-analysis of the deposited data

How the results depend on the processing

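Counts of genes were recomputed under TMM and median-of-ratios scaling, minimums of 500 and 1000 UMIs a barcode, barcodes without the high ones and other count minimums, and the counts of the 4 pairwise comparisons also under other totals and a mean over barcodes. They stayed within 1.5 times in 70 of 88 cases. Of the 18 exceptions 17 were count minimums and 1 was TMM. With at least 100 counts, genes higher and lower in PT(S2) numbered 81 and 50 against PT(S1), 70 and 70 against PT(S3), 187 and 686 against all other UUO nuclei, and 809 and 652 against healthy PT(S1-S2). With at least 1 count, 912 genes were lower than in PT(S1), 990 higher and 823 lower than in PT(S3), 621 higher than in all other UUO nuclei and 3197 lower than in healthy PT(S1-S2). Genes highest in PT(S2) numbered 325 under TMM, 508 with at least 1 count and 35 with at least 100. Genes between PT(S1) and PT(S3) numbered 1910 and 171 at those minimums.

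The share of nuclei labelled PT(S2) was 25.8% with at least 500 UMIs and 33.7% with at least 1000. The median PT(S2) nucleus showed 235 genes at 300 UMIs, 668.5 at 1000 and 409 at 500 without mitochondrial, ribosomal protein and Malat1 counts. Among list medians and named genes that were at least 2-fold apart, none changed sign under the scalings, the 1000 UMI minimum or without the high barcodes. Smaller list medians and smaller ratios were left out of this check. No replicate could be left out, since each condition is 1 library. No paired analysis was possible because each group has 1 library. Depth limits genes with few counts, and differences between UUO and healthy kidney cannot be told apart from library and sex.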

Other observations

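Immediate early and stress genes, which respond within minutes to hours to injury and handling, have not been described above. Of 8 measured against healthy PT(S1-S2), 6 were at least 2-fold higher in PT(S2) and 0 lower, with a median log2 ratio of 1.71. Over all genes 14.7% were higher and 20.7% lower. Within the UUO library the list summed to 400.5 CPM in PT(S2) and 344 in all other nuclei, so its level was not particular to the label. Klf6, a zinc finger factor, was at 151 CPM in PT(S2) and 15.6 in healthy PT(S1-S2), a log2 ratio of 3.28 (2.38 to 4.35), and Jun at 28.6 and 6.23 CPM. Against PT(S3), Hspa1a, Dusp1 and Ier2 of this list were higher in PT(S2) and 0 of 13 lower, where 4.48% of all genes were higher and 3.5% lower.

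Of 22 measured genes of junctions and adhesion, 9 were higher in PT(S2) than in healthy PT(S1-S2) and 6 lower, where 14.7% of all genes were higher and 20.7% lower. Cdh2, N-cadherin, was at 50.0 and 6.23 CPM and Cldn7, a claudin of the distal nephron, at 21.4 and 4.67 CPM. Cdh16, the kidney-specific cadherin, was at 56.3 CPM in PT(S2) and 114 in healthy PT(S1-S2). Of 12 measured cell division genes 1 was higher and 2 lower, both under the shares over all genes.

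Malat1, a noncoding RNA held in the nucleus and the most abundant RNA of PT(S2), took 11.6% of the UMIs of PT(S2) and 8.23% of those of all other UUO nuclei. The protein-coding gene Esrrg took 0.591% and 0.332%. Slc5a12 stood at 1508 CPM in PT(S1) of the UUO library, which is more than the 347 CPM of healthy PT(S1-S2), whereas PT(S2) was lower at 85.0 CPM.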
